A study of Mus musculus with 19 samples.

Results

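The 10 genes described here encode components or hepatic targets of the Wnt/β-catenin pathway: Axin2, Lgr5, Rnf43, Znrf3, Tbx3, Lect2, Glul, Tcf7l2, Ctnnb1 and Apc. They were chosen by name from 22350 annotated protein-coding genes of the mouse, with earlier results of these data known, and no measured value enters the rule. A window was drawn around each gene that held the gene body and 20 kb on either side, and every YAP or TEAD peak that overlapped a window by at least 1 bp was taken. The windows were 46.1 to 232 kb long and covered 1164 kb together.

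YAP coactivates transcription and is held back by Hippo signalling, and TEAD proteins are its DNA-binding partners. Both were mapped by ChIP-seq in livers of C57BL/6 mice in which a tet-YAP transgene, an activated YAP allele that lacks an inhibitory phosphorylation site, was induced for 3 or 7 days, in order to follow how YAP and TEAD reach chromatin early after induction. All mice carried the ROSA26-rtTA-IRES-EGFP allele, and all received doxycycline food. Induced livers carried tetYAP and were taken after 3 days (3 d) or 7 days (7 d), and control livers did not carry tetYAP and received the food for 7 days (WT). According to the study's methods, an albumin-driven Cre recombinase released the rtTA activator, which directs induction to hepatocytes, whereas whole liver was immunoprecipitated. Signal from hepatocytes and from other liver cells therefore cannot be told apart. YAP was precipitated after fixation with DSG and formaldehyde and TEAD after formaldehyde alone. The TEAD antibody does not identify which TEAD protein was bound. Of the 19 samples, 4 were TEAD replicates at 7 d and every other group had 3. The replicates of each group were merged before peaks were called, so each group is 1 peak list with no replicate check, and differences between lists are given without a test. The merged libraries held 34260362 to 55032002 tags. Peak lists hold no RNA, so neither the liver label nor expression of the transgene could be checked against marker genes.

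In the absence of Wnt ligand, cytoplasmic β-catenin, the product of Ctnnb1, is degraded by a destruction complex built on the scaffolds APC and AXIN. Wnt binding to Frizzled receptors stops this degradation, and β-catenin then enters the nucleus and joins DNA-bound TCF/LEF proteins such as TCF7L2. RNF43 and ZNRF3 are membrane ubiquitin ligases that remove Frizzled receptors, and LGR5 is a receptor for R-spondins, which block these ligases. In the liver, Wnt signals from the central vein maintain the pericentral program of hepatocytes. Glul, encoding glutamine synthetase, is its best known marker, while Axin2, Lgr5, Tbx3 and Lect2 are established β-catenin targets of hepatocytes.

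The sequences at 5 TEAD summits are shown because the results turn on these sites. They are the intronic Tcf7l2 site that also held YAP, the sites of Rnf43 and Znrf3 with the highest pileup at 7 d, the Lect2 promoter, and the weaker Axin2 promoter as a contrast. They were read from NCBIM37 (mm9) on the forward strand around the summit at 7 d, and for Lect2 only the part upstream of the start is given. Capitals mark GGAAT on either strand, the core of the TEAD motif GGAATG, and the TCF/LEF letters CTTTGAT or CTTTGAA on either strand.
Tcf7l2 intron, chr19:55920847-55920997: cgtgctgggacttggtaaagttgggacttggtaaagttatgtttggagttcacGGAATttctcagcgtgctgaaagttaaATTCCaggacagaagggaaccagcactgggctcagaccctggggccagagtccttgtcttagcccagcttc
Rnf43 intron, chr11:87514899-87515049: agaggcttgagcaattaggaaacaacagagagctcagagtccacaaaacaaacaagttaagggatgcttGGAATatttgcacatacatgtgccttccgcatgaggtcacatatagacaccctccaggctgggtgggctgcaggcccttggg
Znrf3 intron, chr11:5322108-5322258: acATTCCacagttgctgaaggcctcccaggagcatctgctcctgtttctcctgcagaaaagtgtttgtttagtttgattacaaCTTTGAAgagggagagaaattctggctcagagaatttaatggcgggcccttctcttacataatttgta
Lect2 promoter, chr13:56649900-56649987: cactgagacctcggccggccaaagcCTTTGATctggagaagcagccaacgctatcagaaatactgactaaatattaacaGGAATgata
Axin2 promoter, chr11:108781905-108782055: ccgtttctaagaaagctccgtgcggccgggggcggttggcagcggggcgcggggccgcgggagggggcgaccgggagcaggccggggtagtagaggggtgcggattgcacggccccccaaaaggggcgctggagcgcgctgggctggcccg
The full motif GGAATG was found once in the Znrf3 sequence and once in the Lect2 sequence. The Tcf7l2 sequence held 2 matches to GGAAT, and the Rnf43 sequence held 1. The Axin2 sequence held no GGAAT and no TCF/LEF letters. The Lect2 sequence also held CTTTGAT, and the Znrf3 sequence held CTTTGAA.

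TEAD was present at most of these genes after YAP induction, whereas YAP was called at 1 of them. The windows held 7 TEAD peaks in the WT list, compared with 36 at 3 d and 30 at 7 d. At least 1 TEAD peak was called at 5 of the 10 genes in the WT list, at 9 at 3 d and at 9 at 7 d. Over all protein-coding genes, 25.4% had a TEAD peak within 20 kb in the WT list, 65.3% at 3 d and 66.5% at 7 d. Windows of these genes were longer than most, with a median of 92.1 kb against 55.4 kb. Per 100 kb of window, the 10 genes held 0.602 TEAD peaks in the WT list, 3.09 at 3 d and 2.58 at 7 d. The windows of all protein-coding genes held 0.332, 2.16 and 2.27 TEAD peaks per 100 kb. The 10 genes thus had more TEAD peaks per 100 kb than the background in each list, and the ratio of the 2 values was smallest at 7 d. Among as many of the strongest peaks as the WT list holds, the windows held 7 TEAD peaks at 3 d and 6 at 7 d, an alternative that keeps fewer peaks by construction.

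More TEAD peaks after induction than in WT livers was also the pattern of most genes in the genome. Of the 5 genes without a TEAD peak in the WT list, 4 had one at 3 d and 4 at 7 d, against 53.6% and 55.3% of all genes without a WT peak. At 9 of the 10 genes, more TEAD peaks were called at 7 d than in WT livers, against 63.6% of all genes. The WT list held 5695 TEAD peaks in all, against 36446 at 3 d and 38984 at 7 d. At 6 of the 10 genes, more TEAD peaks were called at 3 d than at 7 d, against 20.7% of all genes. These 6 were Axin2, Rnf43, Znrf3, Lect2, Glul and Apc. Only Ctnnb1 had more at 7 d, and Lgr5, Tbx3 and Tcf7l2 had equal numbers. The shares of 63.6% and 20.7% are over all genes, including the 30.2% without a TEAD peak in any list, which cannot differ. The windows of all genes were also shorter, with a median of 55.4 kb against 92.1 kb. The merged TEAD library was deeper at 3 d (55032002 tags) than at 7 d (38523843 tags), and the part of depth in these counts was not tested. Among peaks with a fold enrichment of at least 5, the order was turned, with 21 at 3 d and 26 at 7 d.

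**Figure D1:**
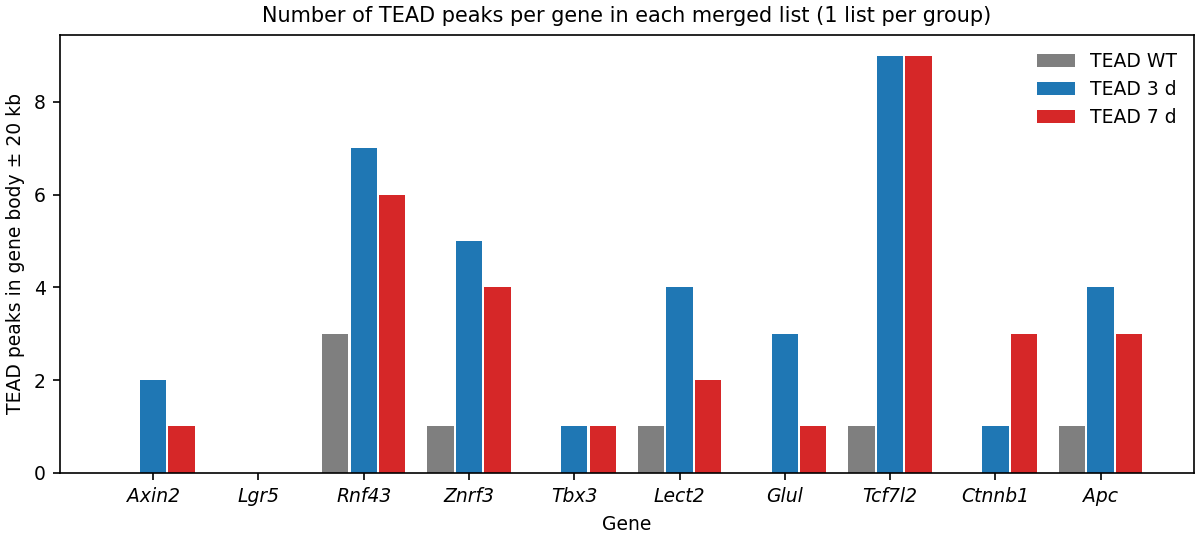
Number of TEAD peaks (vertical axis) in the window of each gene (horizontal axis) in the merged WT, 3 d and 7 d lists, with 1 bar per list and no error bars because each group is 1 list. Tcf7l2 and Rnf43 had the most peaks, Lgr5 had none, and Axin2, Tbx3, Glul and Ctnnb1 had peaks only after induction.

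Most TEAD peaks at these genes were of ordinary strength for their list. Strength was taken as the pileup, the count of extended fragments lying over the summit, and ranked within each list. In WT livers, the median member peak had 62.7% of the list at or above its pileup. The corresponding medians were 58.3% at 3 d and 65.2% at 7 d. None of the 7 WT peaks, 4 of the 36 peaks at 3 d and 3 of the 30 peaks at 7 d were in the top 10% by pileup, a class that held 9.64%, 9.75% and 9.88% of the 3 lists because of ties. Median fold enrichment over the local background was 4.25 in the WT list, 5.42 at 3 d and 6.71 at 7 d, against list medians of 5.05, 5.44 and 7.3. By pileup, the strongest member peak belonged to Znrf3 in WT livers and at 3 d and to Rnf43 at 7 d, both encoding ubiquitin ligases.

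**Figure D2:**
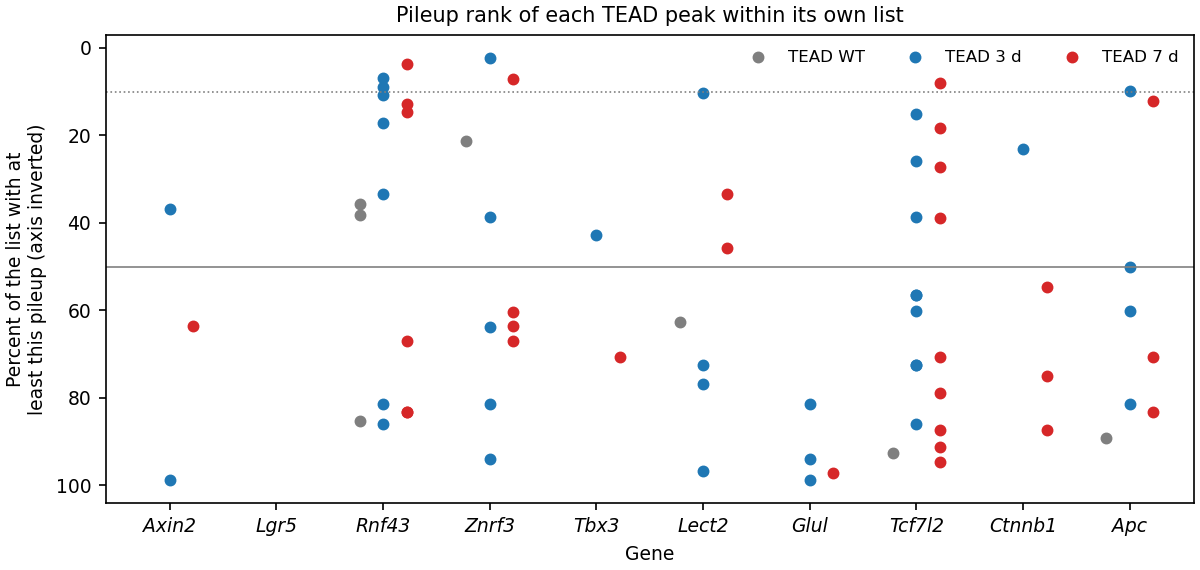
Percent of the list with at least the pileup of each TEAD peak (vertical axis, inverted so that strong peaks are at the top) by gene and list. Each point is 1 peak, the dotted line marks 10% and the solid line 50%, and points above the dotted line belong to Rnf43, Znrf3, Tcf7l2 and Apc.

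Among the feedback inhibitors at the receptor, Rnf43 had 3 TEAD peaks in the WT list, 7 at 3 d and 6 at 7 d, which fell into 7 sites. A site is a stretch in which TEAD peaks of different lists overlap. The site with the highest pileup at 7 d lay in an intron at chr11:87514499-87515637, 38.8 kb from the outermost annotated start. This site was also 1575 bp downstream of another annotated Rnf43 start, outside the promoter rule. A non-coding exon of 1110028F11Rik is annotated at the site as well. Its fold enrichment was 4.25 in the WT list, 13.6 at 3 d and 31.3 at 7 d. This site lay in the weaker part of the WT list, with 85.4% of peaks at or above its pileup, and among the stronger peaks of the induced lists, with 8.95% and 3.58%. A second intronic Rnf43 site, 26.9 kb from the outermost start at chr11:87502746-87503404, had fold enrichments of 5.98, 13.4 and 15.9. By pileup this second site was the stronger of the 2 in WT livers (45 against 32) and at 3 d (93 against 83). The third Rnf43 site held by every TEAD list lay beyond the gene end, 1600 bp upstream of Supt4h1, which encodes a transcription elongation factor. There the fold enrichments were 5.85, 12.5 and 17.0. The promoter site at the outermost Rnf43 start was weak, with no WT peak and fold enrichments of 4.11 at 3 d and 3.25 at 7 d.

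Znrf3, the paralog of Rnf43, had 1 TEAD peak in the WT list, 5 at 3 d and 4 at 7 d. Its main site was intronic, 22.7 kb from the start, at chr11:5321797-5322715, the position of the printed Znrf3 sequence. Fold enrichment there was 6.58 in the WT list, the highest of any member peak there, 18.6 at 3 d and 24.3 at 7 d. The site had 21.2%, 2.29% and 7.05% of each list at or above its pileup. The other 4 Znrf3 sites were not called in WT livers and had fold enrichments of 4.1 to 6.73 at 3 d. One of them lay 277 bp upstream of Kremen1, which encodes a receptor for the Wnt antagonist Dickkopf, with fold enrichments of 4.1 at 3 d and 7.07 at 7 d. No TEAD peak was called at the Znrf3 promoter, taken to run from 2000 bp before to 1000 bp after an annotated start.

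Lgr5 was the only one of the 10 genes without a called peak. No TEAD or YAP peak of any list fell in its window of 177 kb. The TEAD peak nearest to the gene body lay 221 kb away in WT livers, 62.1 kb away at 3 d and 65.4 kb away at 7 d. Of 1582 genes with windows at least as long, 18.6% likewise had no TEAD peak in any list, against 30.2% of all genes. This comparison of long genes was made after the Lgr5 counts were seen.

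In the destruction complex, Apc had a strong promoter peak and Axin2 a weak one. At Apc the promoter site had its summit 107 bp upstream of the start. Its fold enrichment was 4.12 in the WT list, 13.1 at 3 d and 18.6 at 7 d, with 89.1%, 9.75% and 12.2% of the lists at or above its pileup. The 3 other Apc sites were not called in WT livers. Their fold enrichments were 4.6 to 5.86 at 3 d, and 1 of them lay at the start of Srp19, which encodes a signal recognition particle subunit. At Axin2, a feedback inhibitor and direct β-catenin target, no TEAD peak was called in WT livers. Its promoter site, at chr11:108781744-108782177 in the first kilobase of the gene, had almost the same fold enrichment at 3 d (6.89) and 7 d (6.83). A further intronic Axin2 peak, 16.1 kb from the start, was called only at 3 d, with a fold enrichment of 3.78.

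Ctnnb1 was not occupied by TEAD at a called peak in WT livers. At 3 d, its single peak lay beyond the gene in an intron of the neighbouring gene Ulk4, 44.3 kb from the Ctnnb1 start, with a fold enrichment of 8.7. The same site had a fold enrichment of 7.3 at 7 d. Inside Ctnnb1, 2 intronic peaks were called only at 7 d, 5.31 and 6.95 kb from the outermost start, with fold enrichments of 5.42 and 6.13. The peak at 5.31 kb lay 708 bp downstream of another annotated Ctnnb1 start and is counted as a promoter peak. Both intronic peaks were in the weaker part of their list, with 87.4% and 74.9% of peaks at or above their pileup.

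Tcf7l2, the DNA-binding partner of β-catenin, had the most TEAD sites, with 11 in a window of 232 kb. It had 1 TEAD peak in the WT list, 9 at 3 d and 9 at 7 d. The site held by every TEAD list was intronic, 38.2 kb from the start, with fold enrichments of 3.87 in the WT list, 10.6 at 3 d and 10.3 at 7 d. The site that differed most between the induced lists lay 105 kb from the start, in an intron at chr19:55920117-55921166, and is the Tcf7l2 sequence printed above. No TEAD peak was called there in WT livers. At 3 d, 2 separate TEAD peaks were called, with fold enrichments of 4.92 and 5.43. At 7 d, 1 TEAD peak of 1050 bp covered both, with a fold enrichment of 22.9. It had 8.08% of the list at or above its pileup at 7 d, against 56.5% for the stronger peak at 3 d. The Tcf7l2 promoter held weak peaks at different positions at 3 d and 7 d, with fold enrichments of 4.43 and 5.89.

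The only YAP peak in the windows of the 10 genes was called at this Tcf7l2 site, at 7 d. The WT and 3 d lists had no YAP peak in any of the 10 windows. Over all protein-coding genes, 0.139% had a YAP peak within 20 kb in the WT list, 0.192% at 3 d and 6.34% at 7 d. The Tcf7l2 YAP peak spanned chr19:55920667-55920984, inside the TEAD peak. Its pileup was 23, which ranked it 1249 of 1478 YAP peaks. The fold enrichment was 5.02, and the −log10 p-value was 9.83, so that no YAP peak was left when at least 10 was required. It was therefore among the weaker YAP peaks of its list, although TEAD was strong at the same position. Of the 30 TEAD peaks at these genes at 7 d, this 1 overlapped a YAP peak, against 3.58% of all TEAD peaks at 7 d. The Rnf43 and Znrf3 sites with a higher TEAD pileup at 7 d had no YAP peak. Per 100 kb of window, YAP peaks at 7 d numbered 0.0859 at the 10 genes and 0.0792 over all genes.

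**Figure D3:**
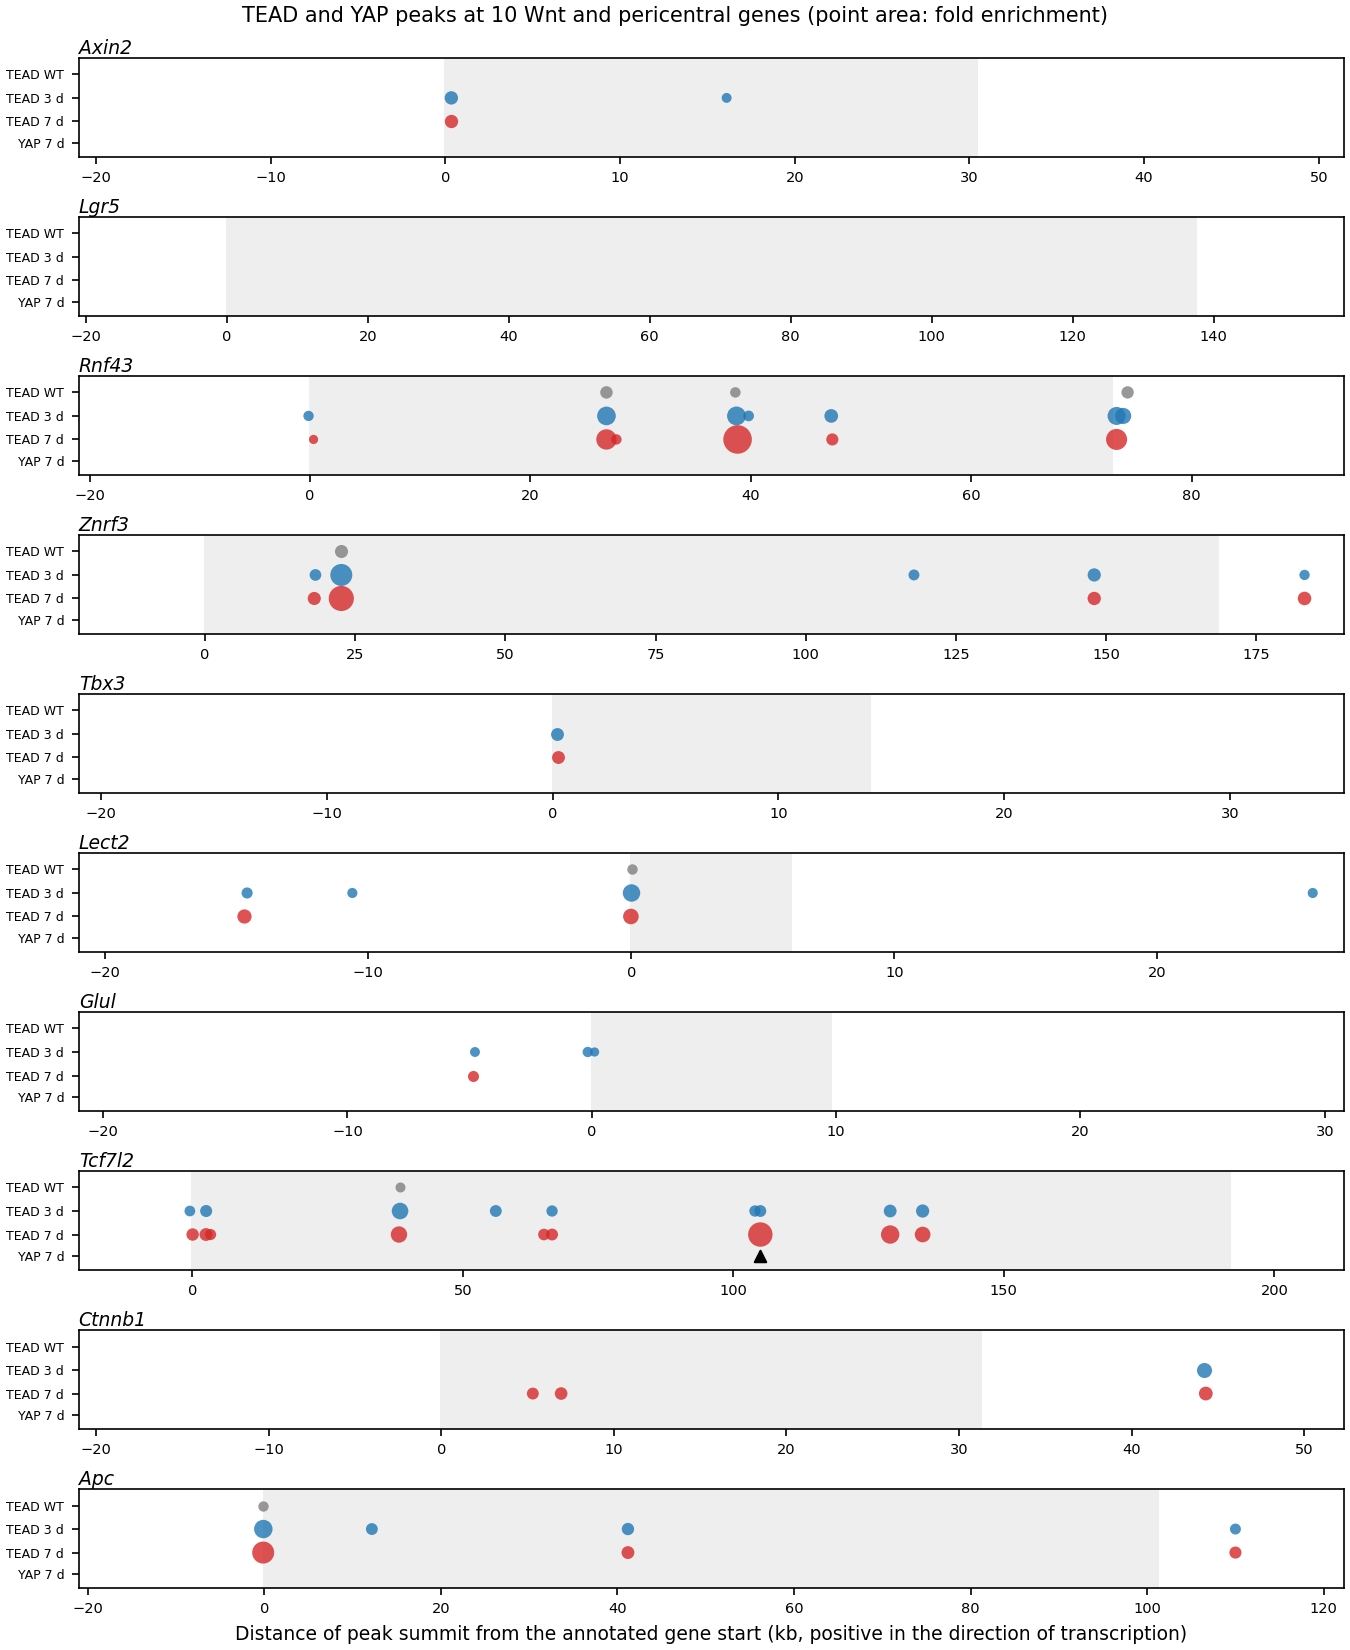
Position of each TEAD peak summit (WT, 3 d and 7 d, circles with area in proportion to fold enrichment) and of the YAP peak at 7 d (black triangle) along the 10 windows, in kb from the annotated gene start, with gene bodies in grey. The largest circles are the Rnf43 site at 38.8 kb, the Znrf3 site at 22.7 kb and the Tcf7l2 site at 105 kb, where the only YAP peak lay.

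The 3 pericentral genes beside Axin2 and Lgr5 differed in where TEAD was found. Lect2, which encodes a secreted hepatocyte protein, had a promoter peak in every TEAD list, at chr13:56649580-56650129 with the summit 13 bp upstream of the start at 7 d. Its fold enrichment was 4.18 in the WT list, 11.7 at 3 d and 9.35 at 7 d. Lect2 also had a site 14.7 kb upstream, not called in WT livers, with fold enrichments of 4.76 at 3 d and 7.8 at 7 d. At 3 d, 2 more weak peaks were called, 10.6 kb upstream and at the Fbxl21 promoter, with fold enrichments of 3.96 and 3.94.

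Tbx3, a transcription factor that is a β-catenin target in liver, had 1 TEAD site, at its start. The site was not called in WT livers and had fold enrichments of 6.4 at 3 d and 6.36 at 7 d. At Glul, TEAD was weak throughout. No peak was called in WT livers, and 3 were called at 3 d, with fold enrichments of 3.78, 4.1 and 3.27. At 7 d a single Glul peak was called, 4.87 kb upstream of the start in an intron of 5830403L16Rik, with a fold enrichment of 4.71 and 97.1% of the list at or above its pileup. The 2 Glul peaks beside the start, 163 bp upstream and 117 bp downstream, were not called at 7 d.

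Promoter peaks were counted separately. In WT livers, TEAD peaks overlapped the promoters of 2 of the 10 genes, Lect2 and Apc. Both induced lists had TEAD peaks at 7 promoters each. Over all protein-coding genes, the shares were 8.7%, 38.9% and 37.6%. Glul had a promoter peak at 3 d but not at 7 d, and Ctnnb1 at 7 d but not at 3 d. Lgr5 and Znrf3 had none in any TEAD list. A YAP peak overlapped none of the 10 promoters at 7 d, against 1.04% of all protein-coding genes.

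The TEAD peaks of the 3 lists formed 40 sites in the windows, of which 24 lay in gene bodies, 14 at promoters and 2 between genes. Of the 40, 7 were held by every TEAD list (17.5%), against 11.4% of the 47146 TEAD sites of the genome. When summits had to lie within 100 bp of each other, 4 sites were held by every list. A further 17 were called at 3 d and 7 d but not in WT livers (42.5% against 46.1%). Another 10 were called at 3 d alone (25% against 18.2%) and 6 at 7 d alone (15.0% against 23.7%). No member site was called in WT livers and then in only 1 or none of the induced lists. Such sites were also rare in the genome, with 0.42% called in WT livers and at 3 d, 0.0679% in WT livers and at 7 d, and 0.125% in WT livers alone. The 7 sites held by every list were those of Rnf43 (3), Znrf3, Lect2, Tcf7l2 and Apc (1 each). In each the fold enrichment was higher at 3 d and at 7 d than in WT livers. How often this held over the genome was not computed. The median fold enrichment of all peaks in a list was also higher after induction, at 5.05 in the WT list, 5.44 at 3 d and 7.3 at 7 d. The caller used a fragment length of 400 bp for WT and of 207 and 206 bp for the induced lists, so the WT values are set beside the others and were not subtracted.

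At the 24 member sites called at both 3 d and 7 d, the pileup per 1000000 tags was compared. This measure scales for the different depths of these 2 libraries, which had nearly equal fragment lengths. It covers only sites that passed the cutoff in both lists. The lowest member peak, at Glul in both lists, had 0.418 fragments per 1000000 tags at 3 d and 0.519 at 7 d. Sites called in 1 list only have no ratio, and the part of this selection in the ratios was not tested. The median ratio of 7 d to 3 d was 1.2, with a range of 0.779 to 4.08, and the ratio was above 1 at 19 sites and below 1 at 5. Over all 27104 TEAD sites called at both times, the median ratio was 1.34, with 23090 sites above 1 and 4014 below. The ratio was at least 1.5 at 5 of the 24 member sites, against 34.3% of all sites, and 1.5-fold lower at none, against 0.727%. The Tcf7l2 site with YAP had the highest ratio. This site had 0.618 fragments per 1000000 tags at 3 d and 2.52 at 7 d, and its ratio of 4.08 was at the 99.3 percentile of all such sites. The intronic Rnf43 site at 38.8 kb followed, with 1.51 fragments per 1000000 tags at 3 d and 3.45 at 7 d, a ratio of 2.29 at the 93.4 percentile. The remaining 3 were a second distal Tcf7l2 site at 129 kb (1.8), the upstream Lect2 site (1.77) and the Kremen1 promoter (1.71). Ratios at the Axin2 and Tbx3 promoters were 0.986 and 0.989, and at the Lect2 promoter 0.806.

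**Figure D4:**
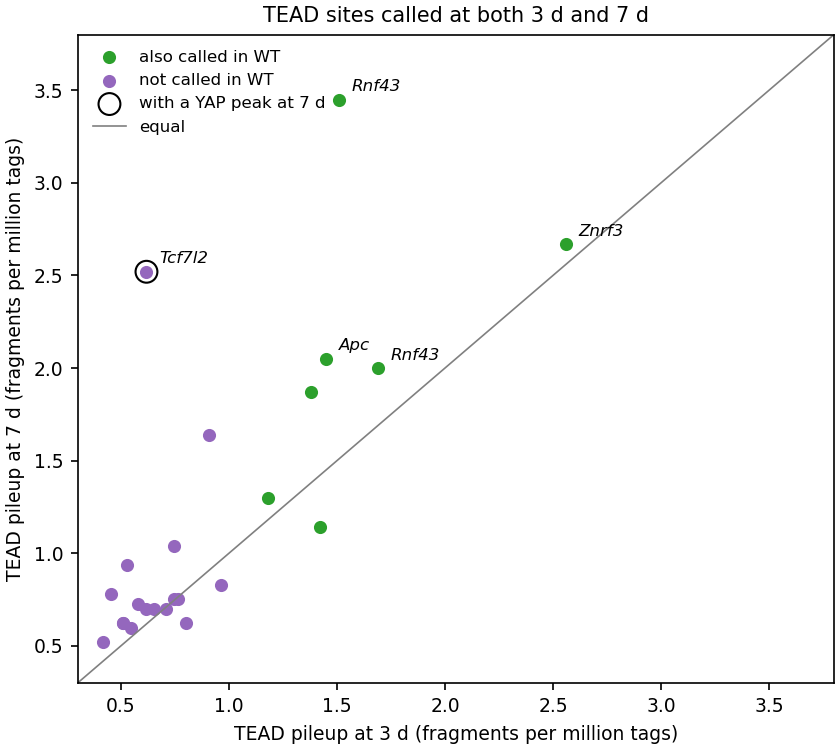
TEAD pileup in fragments per 1000000 tags at 3 d (horizontal) and 7 d (vertical) for the 24 sites called at both times, with the line of equality. The Tcf7l2 site with a YAP peak (circled, 0.618 and 2.52) and the Rnf43 site (1.51 and 3.45) lie farthest above the line.

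The TEAD motif was about as frequent at these sites as in the whole list at 7 d. GGAATG on either strand was found within 100 bp of the summit in 4 of 7 member peaks of the WT list, 14 of 36 at 3 d and 10 of 30 at 7 d. The same letters were found at 48.6%, 30.4% and 35.2% of all peaks of these lists. By site, 13 of 40 held GGAATG, including 4 of the 7 sites held by every list. Neither the Tcf7l2 site with YAP nor the Rnf43 site at 38.8 kb, whose sequences are printed above, held it, whereas 59.0% of all YAP peaks at 7 d did. Both held the shorter letters GGAAT, which were searched after the sequences had been seen and which occurred at 62.7% of all TEAD peaks at 7 d. GGAATG contains GGAAT, so the counts overlap. The TCF/LEF letters CTTTGAT were found at 3 of the 30 member peaks at 7 d, against 3.52% of the list. CTTTGAA was likewise found at 3, against 5.56%. The AP-1 letters TGANTCA were found at 1 of the 30, against 8.71%, and the forkhead letters TGTTTAC at 3, against 5.76%. The HNF4A letters CAAAGTCCA were found at none of the 40 sites, and at 1.69% of all TEAD peaks at 7 d. These matches are descriptions of short windows and do not show which protein was bound.

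TEAD was also called at most genes of the wider pathway after induction. Of 105 further genes of the Wnt pathway and of liver zonation, 35 had a TEAD peak in the WT list, 83 at 3 d and 78 at 7 d within the same distance. The shares over all protein-coding genes were 25.4%, 65.3% and 66.5%. TEAD was called at all 10 genes of the destruction complex and cytoplasm list after induction and at 8 in WT livers. These include Gsk3b, a kinase of the complex, with 1, 4 and 3 peaks, and Axin1, the second scaffold, with 0, 1 and 1. Of 17 receptor genes, 5 had a peak in the WT list, 12 at 3 d and 11 at 7 d. For 23 Wnt ligand and R-spondin genes the numbers were 3, 13 and 13, and for 16 secreted and feedback inhibitors 2, 11 and 10. Of 11 nuclear factors, 5, 10 and 8 had a peak, and of the targets Sp5, Myc, Ccnd1 and Cd44, 1, 3 and 2. At 7 d, the ligand list was below the share of all genes, and so was the target list, which has only 4 genes. The receptor, inhibitor and nuclear factor lists were close to this share, and the destruction complex and cytoplasm list was above it. Median windows of these lists were 47.5 to 71.9 kb, against 55.4 kb over all genes.

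TEAD was called at genes of both liver zones. All 11 pericentral genes had a TEAD peak at 3 d and 7 d, and 5 had one in WT livers. All 13 periportal genes also had a TEAD peak at both times, and 6 had one in WT livers. The shares over all protein-coding genes were 65.3% at 3 d, 66.5% at 7 d and 25.4% in the WT list. The 11 pericentral genes had 44 TEAD peaks in all at 3 d and 37 at 7 d, and the 13 periportal genes 102 and 78. Over all protein-coding genes, the mean was 2.3 TEAD peaks per gene at 3 d and 2.37 at 7 d. Median windows were 52.3 kb for pericentral and 53.8 kb for periportal genes, and the difference between the 2 lists was not tested. Cyp2e1, a pericentral cytochrome P450, had 1 TEAD peak in the WT list, 5 at 3 d and 2 at 7 d. Cps1, the periportal entry enzyme of the urea cycle, had 0, 15 and 7. The Cps1 gene body is longer than that of Cyp2e1, and these counts are not scaled for length.

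**Figure D5:**
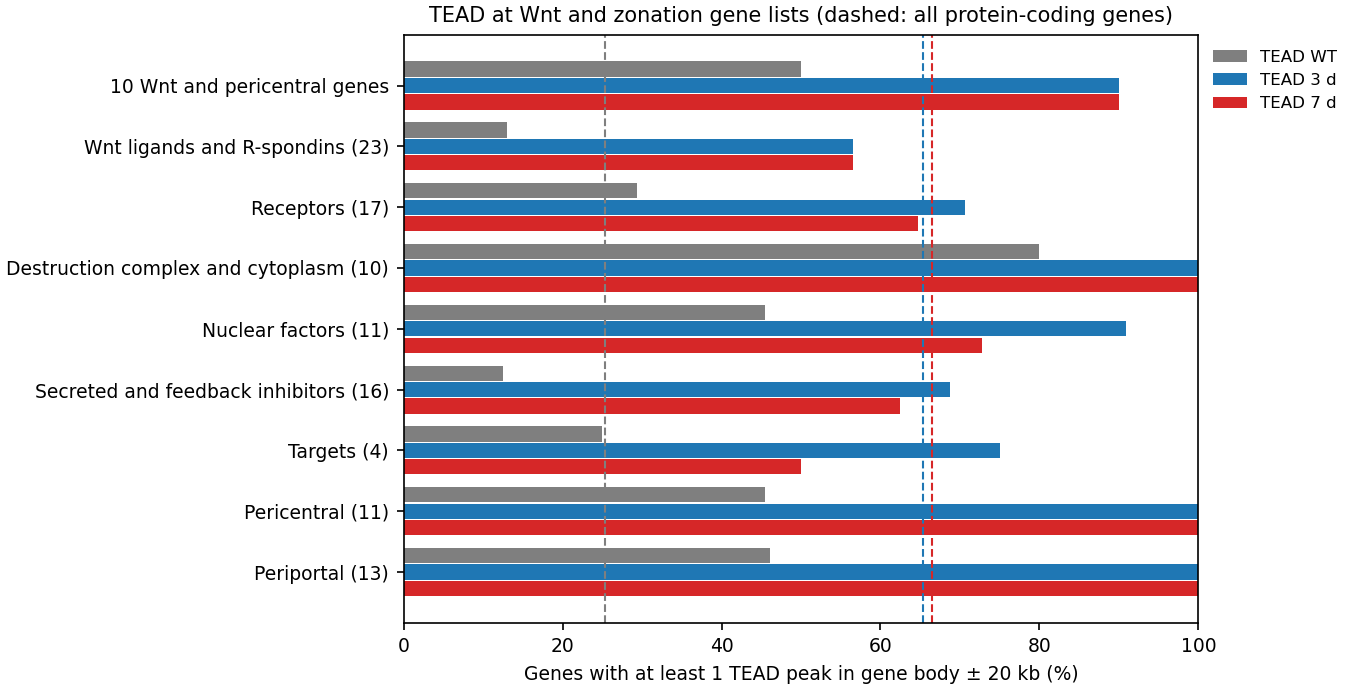
Share of genes with at least 1 TEAD peak within 20 kb of the gene body (horizontal axis, percent) in WT, 3 d and 7 d lists, for the 10 genes and 8 gene lists with their sizes in parentheses. Dashed lines give all protein-coding genes (25.4%, 65.3% and 66.5%), and the destruction complex, pericentral and periportal lists reach every gene after induction.

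YAP was called at 7 d at 8 of the 105 further genes, near the 6.34% of all protein-coding genes, and at none in WT livers or at 3 d. The nuclear factors were Tcf7l1, a TCF/LEF family repressor, Tle1, a corepressor, and Pygo2, a β-catenin coactivator. The YAP peak near Pygo2 lay at the promoters of Shc1 and Cks1b. Tcf7l1 carried its YAP peak in an intron 48.5 kb from the start, with a fold enrichment of 6.51. Ccnd1, encoding cyclin D1, had 3 YAP peaks, 12.3 kb downstream and 1.94 and 3.48 kb upstream of its start, with fold enrichments of 7.83, 5.85 and 5.68. The other genes were Wnt8a, Gulo, G6pc and Pck1, with fold enrichments of 5.02 to 6.08. One of the 2 YAP peaks near Gulo lay at the start of Clu. All 11 of these YAP peaks overlapped a TEAD peak at 3 d and at 7 d. Whether such overlap was particular to these genes was not tested, because overlap with TEAD was not counted over the whole YAP list. The count made at 7 d was of TEAD peaks, of which 1395 overlapped a YAP peak, beside 1478 YAP peaks in all.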

How the data were processed

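YAP and TEAD ChIP-seq was measured in 19 mouse liver samples. Per the submitters' processing notes and the study's methods, the authors aligned reads to mm9 with BWA 0.6.2, merged replicates, removed duplicates and called peaks with MACS2 2.0.9. Per the file headers, the p-value cutoff was 1e-05, tags were 51 bp, and 1 control library of 167176362 tags, from earlier published data per the methods, served all 6 lists. The deposited pileup is a signal that counts extended fragments over the summit. The deposited fold enrichment is the ratio of pileup to local background. The deposited −log10 p-value and −log10 q-value are those of the caller. Per the file headers, fragment lengths were 250 bp for YAP, 400 bp for TEAD in WT livers, 207 bp at 3 d and 206 bp at 7 d. Depth limits which peaks passed the cutoff, and an uncalled peak is not absence of binding.

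The following was computed here with Python 3.11.15, pandas 2.3.3 and numpy 2.4.6. Gene bodies and transcripts came from the NCBIM37 annotation, on numbered chromosomes and X. Groups came from the sample labels. Peaks were counted at an overlap of at least 1 bp, ranked by pileup within a list (ties counted at or above) and chained into sites. At a site, the strongest peak of a list was used. Promoters were taken from 2000 bp before to 1000 bp after an annotated start. Distances of sites from the start of their gene were measured from its outermost annotated start, unless another start is named. Motif letters were searched on both strands within 100 bp of the summit. For Amer1 the older symbol of the annotation was used. Counting and motif search were tested on simulated data. No test was made between conditions because each group is 1 list. All 10 genes were described with their strongest peaks, promoter peaks and YAP peaks, and further pathway genes were named where YAP was called at 7 d. Examples from the other lists were chosen after their values were seen. The 10 genes and the gene lists were chosen with earlier results of these data known. The ratio of 7 d to 3 d was added after the data were seen. Alternatives covered stricter peaks, equal list lengths, other windows, overlap rules, rank measures and motif windows.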

Additional observations from a re-analysis of the deposited data

How the results depend on the processing

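No paired analysis was possible because each list comes from pooled replicates, and for the same reason leaving out a replicate could not be run. Of 48 alternative values for 13 results, 39 stayed within 1.5 times the main value. With a fold enrichment of at least 5, the TEAD peaks at the 10 genes numbered 3 in WT livers and 21 at 3 d, fewer than the 26 at 7 d, so the order of 3 d and 7 d was turned. When the induced lists were shortened to the number of peaks in the WT list, 7 TEAD peaks remained at 3 d and 6 at 7 d, against 7 in WT livers. That alternative keeps fewer peaks by construction. With a −log10 p-value of at least 10, 0 YAP peaks were left at 7 d. With summits at most 100 bp apart as the rule for a shared site, 4 sites were held by every TEAD list. Within 50 bp of the summit, GGAATG was found at 9 peaks at 3 d and 2 in WT livers. With GGAAT in place of GGAATG, a choice made after seeing the data, 19 peaks at 7 d held the letters. The fold enrichment ratio of 7 d to 3 d, also added later, had a median of 1.21. The counts depend on depth and on 1 control library, and peaks carry no error between animals. A window assigns a peak to a gene by position only, and of the 30 peaks at 7 d, 25 had a start of the same gene as the nearest coding start.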

Other observations

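The YAP peak nearest to each gene at 7 d was listed after the counts in the windows had been seen. For Axin2 it lay outside the window, 62.4 kb upstream of the start, at chr11:108719130-108719485 in an intron of Ccdc46, and Axin2 was the gene with the nearest coding start. The YAP fold enrichment was 4.37, and the peak ranked 1432 of 1478 by pileup. A TEAD peak overlapped it in every TEAD list, with fold enrichments of 4.39 in the WT list, 13.9 at 3 d and 23.1 at 7 d. That TEAD site was stronger than the Axin2 promoter site at 7 d, with 7.89% of the list at or above its pileup against 63.5%. For Lect2 the nearest YAP peak lay 114 kb downstream of the start, between genes and 3741 bp upstream of Slc25a48, the gene with the nearest coding start, with a YAP fold enrichment of 5.02 and TEAD fold enrichments of 4.12 (WT), 21.7 (3 d) and 27.8 (7 d). Beside Axin2, Lect2 and Tcf7l2, the nearest YAP peak at 7 d lay 306 kb (Apc) to 2856 kb (Tbx3) from the start. The median distance over the 10 genes was 438 kb, against 497 kb over all protein-coding genes.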
